A study of Homo sapiens with 12 samples.

Results

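The comparison set 2 RNA-seq libraries of MDA-MB231 cells carrying a short hairpin RNA against TDP43 (sh_TDP43) against 2 libraries of the same cells carrying a control hairpin (sh_control), out of 12 samples in the series. MDA-MB231 is an established human triple-negative breast cancer line of mesenchymal character. The hairpins were delivered with a lentivirus and stably expressed after selection, and both groups therefore share infection and selection. Libraries of the sh_SRSF3 knockdown (2, same line and delivery) entered the same fit and served as a second point of comparison. A Flag-TDP43 RNA immunoprecipitation (RIP), made in MDA-MB231 cells that overexpress the tagged protein, gave 1 RIP and 1 input library. One hairpin per target is used here, so a change caused by another target of that hairpin cannot be told apart from one that follows TDP43. Of 27745 genes in the count table, 15026 had enough reads to be tested, and these are described here by the pathways and gene classes they belong to.

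The TARDBP gene encodes TDP43, a protein of the nucleus that binds UG-rich RNA. It holds back unannotated (cryptic) exons, shapes splicing and polyadenylation, and binds long introns and the nuclear RNA NEAT1. It is best known from amyotrophic lateral sclerosis (ALS) and frontotemporal dementia (FTD), where it leaves the nucleus of affected neurons. Proliferating cancer cells also depend on it for the processing of many transcripts.

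Counted reads lay between 34457445 and 38326930 per library. The 10 most counted genes took 4.64% to 5.53% of reads and mitochondrially encoded genes 3.51% to 4.68%. Along the second principal component of the 6 libraries, which held 23.4% of the variance, the sh_TDP43 libraries lay at one end and the control libraries at the other. Markers of the line's mesenchymal state were abundant, with a summed level of 5414 and 5137 CPM (counts scaled to library size by the TMM method) in sh_TDP43, against 8109 and 7901 CPM in sh_control, and 5 of the 8 fell. SPARC, one of these 8 markers, was low, at 1.41 and 1.84 CPM in sh_TDP43, against 1.61 and 1.49 CPM in sh_control. Luminal breast markers summed to 1837 and 1940 CPM in sh_TDP43, against 1529 and 1513 CPM in sh_control, with PGR at 0 reads, and haematopoietic markers summed to 75.6 and 84.0 CPM in sh_TDP43, against 120 and 149 CPM in sh_control, with HBB and HBA1 at 0 reads. Fibroblast markers (22.3 and 24.6 CPM in sh_TDP43, against 22.7 and 23.5 CPM in sh_control), packaging-line markers (12.05 and 14.4 CPM in sh_TDP43, against 21.4 and 23.8 CPM in sh_control) and endothelial markers (3.58 and 4.55 CPM in sh_TDP43, against 6.13 and 5.84 CPM in sh_control) were low. The part of these shifts in the results below was not tested. In bulk RNA, fewer cells of a type and less RNA per cell cannot be told apart.

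TARDBP (ENSG00000120948; GRCh37 chromosome 1, 11072401 to 11086477) was at 34.4 and 31.3 CPM in the sh_TDP43 libraries, against 168 and 125 CPM in the control libraries. The groups did not overlap, and the log2 change was -2.15 (SE 0.13, edgeR quasi-likelihood test, Benjamini-Hochberg adjusted p = 3.51e-08). TARDBP was also lower than in the sh_SRSF3 libraries, where it stood at 108 and 102 CPM, with a log2 difference of -1.67 (SE 0.13; adjusted p = 7.28e-08). SRSF3, the splicing factor gene targeted in the other knockdown, also fell, with 187 and 180.4 CPM in sh_TDP43, against 459 and 404 CPM in sh_control (log2 change -1.23, SE 0.10). It stood at 64.1 and 61.7 CPM in the sh_SRSF3 libraries. The library labels therefore match the level of the targeted gene.

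Knockdown of TDP43 moved a large part of the expressed genome, with growth factor and protease genes among the largest falls and the paraspeckle RNA NEAT1 as the largest rise among abundant genes. At an adjusted p of 0.05, 6728 genes (44.8% of those tested) were called, 3105 higher (20.7%) and 3623 lower (24.1%) in sh_TDP43. With upper-quartile scaling in place of TMM the split turned to 3956 higher and 2978 lower, so 57.1% of the calls were higher, against 46.2%. Changes of 2-fold or more were called for 939 genes upward (6.25%) and 967 downward (6.44%). Level separated these 2 sets: among the 9551 genes with a mean of at least 10 CPM, 202 rose and 620 fell by 2-fold or more, whereas among the 5475 genes below 10 CPM 737 rose and 347 fell. All named changes below are log2 changes of sh_TDP43 over sh_control from the same fit, and all adjusted p-values are over the 15026 genes. Groups that do not overlap are common in this comparison, since 73.2% of genes tested had both sh_TDP43 libraries on one side of both control libraries.

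Among genes with a mean of at least 50 CPM, the 8 largest rises were led by NEAT1 (chromosome 11, 65190245 to 65213011), the noncoding RNA on which paraspeckles form. NEAT1 stood at 3175 and 3519 CPM in sh_TDP43, against 381 and 441 CPM in sh_control, and its log2 change was 3.03 (SE 0.11, adjusted p = 1.53e-09). ITGB2, which encodes the beta-2 integrin subunit of leukocytes, followed with 381 and 401 CPM in sh_TDP43, against 59.3 and 59.9 CPM in sh_control (log2 change 2.71, SE 0.10). The haematopoietic marker sum given above moved the other way. KISS1, which encodes the kisspeptin precursor known as a suppressor of metastasis, was at 114 and 124 CPM in sh_TDP43, against 22.5 and 14.8 CPM in sh_control (log2 change 2.68, SE 0.17). FAT3, a giant cadherin gene, had 93.7 and 94.5 CPM in sh_TDP43, against 17.5 and 15.7 CPM in sh_control (log2 change 2.504, SE 0.11). The remaining 4 rises were those of ALS2CL (2.09), the single-stranded DNA-binding protein gene NABP1 (2.03), the endocytic adaptor gene DAB2 (1.97) and the locus RP11-54H7.4 (1.93; chromosome 13, 109921982 to 109926186).

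The 8 largest falls at that level included 3 secreted factors of the epidermal growth factor, cytokine and protease systems. MYBL2, a transcription factor that drives genes of the S and G2 phases, was at 16.2 and 10.8 CPM in sh_TDP43, against 143 and 115 CPM in sh_control (log2 change -3.26, SE 0.16, adjusted p = 8.89e-09). The cytokine gene IL11 stood at 15.9 and 10.9 CPM in sh_TDP43, against 129 and 102 CPM in sh_control (log2 change -3.11, SE 0.18). PLAU, which encodes the plasminogen activator urokinase, had 75.2 and 85.9 CPM in sh_TDP43, against 494 and 574 CPM in sh_control (log2 change -2.73, SE 0.11). The other falls were those of HBEGF (-2.77), a ligand of the EGF receptor described below, BASP1 (-2.76), a membrane protein of growth cones, CLIC4 (-2.65), the tubulin gene TUBB6 (-2.64) and the histone chaperone gene ANP32E (-2.58). The plot of the 16 genes by library shows the 2 libraries of each group side by side; the rule that chose them required groups that do not overlap.

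**Figure D1:**
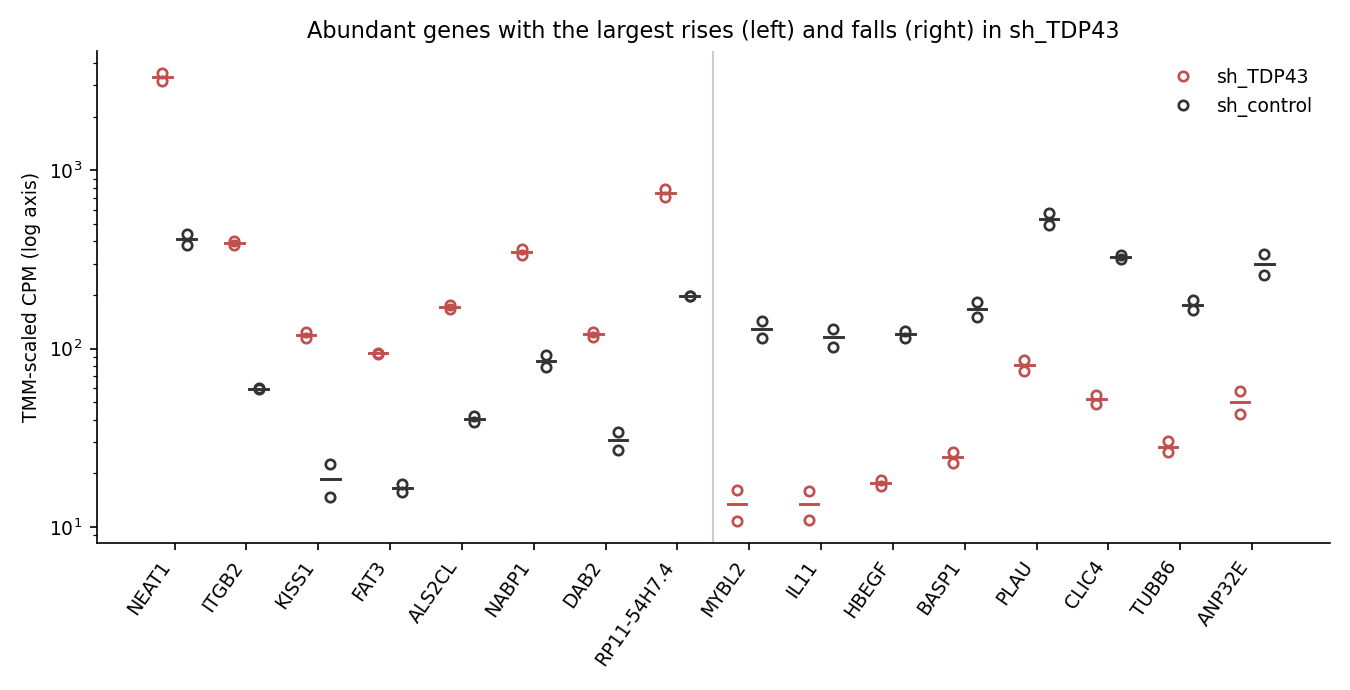
TMM-scaled CPM (log axis) of the 16 genes with at least 50 CPM on average and the largest rises (left of the grey line) or falls (right of it). Open circles are single libraries, bars are means of 2, and sh_TDP43 stands left of sh_control for each gene. NEAT1 lies at 3175 and 3519 CPM in sh_TDP43, against 381 and 441 CPM in sh_control.

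In CPM gained, a measure that depends on gene length, the largest change was again that of NEAT1. The next were AHNAK (log2 change 0.32), the YAP-responsive matricellular gene CYR61 (0.31), ANXA2 (0.49) and ANKRD1 (0.76). ANKRD1, also a YAP target, was at 1488 and 1505 CPM in sh_TDP43, against 862 and 906 CPM in sh_control. The largest losses were those of the mitochondrially encoded MT-ATP6 (-0.57) and MT-CO3 (-0.54), the IGF-binding protein gene IGFBP4 (-1.91), AXL (-1.91) and the chromatin architectural gene HMGA1 (-1.204). ANXA2 and HMGA1 have processed pseudogenes and mitochondrial genes have nuclear copies, so their counts are less certain. The AHNAK call ended in fits without control replicate 1, without sh_TDP43 replicate 1, without sh_SRSF3 replicate 2 and with 4 libraries only, and that of CYR61 without control replicate 2 or either sh_TDP43 replicate.

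Genes were then grouped by function, in 26 lists that cover growth signalling, the cell cycle, RNA handling, autophagy, the cell surface and metabolism. Each list is read against the 20.7% of all tested genes called higher and the 24.1% called lower. These shares depend on level, and the lists were not split by level. At a mean of 10 CPM or more 22.2% of genes were higher and 31.7% lower, and below 10 CPM 18.1% and 10.8%. The shares lower of the amino acid supply list (33.3%) and the chromatin list (31.7%) are close to that of genes at 10 CPM or more. So are those of the paraspeckle list (33.3%), the splicing regulator list (31.8%) and the neuronal list (31.0%). The chart of shares puts the lists of EGF ligands and ERK targets, cell cycle regulators, DNA replication, homologous recombination and axon guidance at its lower end, and autophagy at its upper end. Medians of the log2 change ran between -0.999 for EGF ligands and ERK targets and 0.31 for autophagy, beside -0.0035 for all genes tested.

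**Figure D2:**
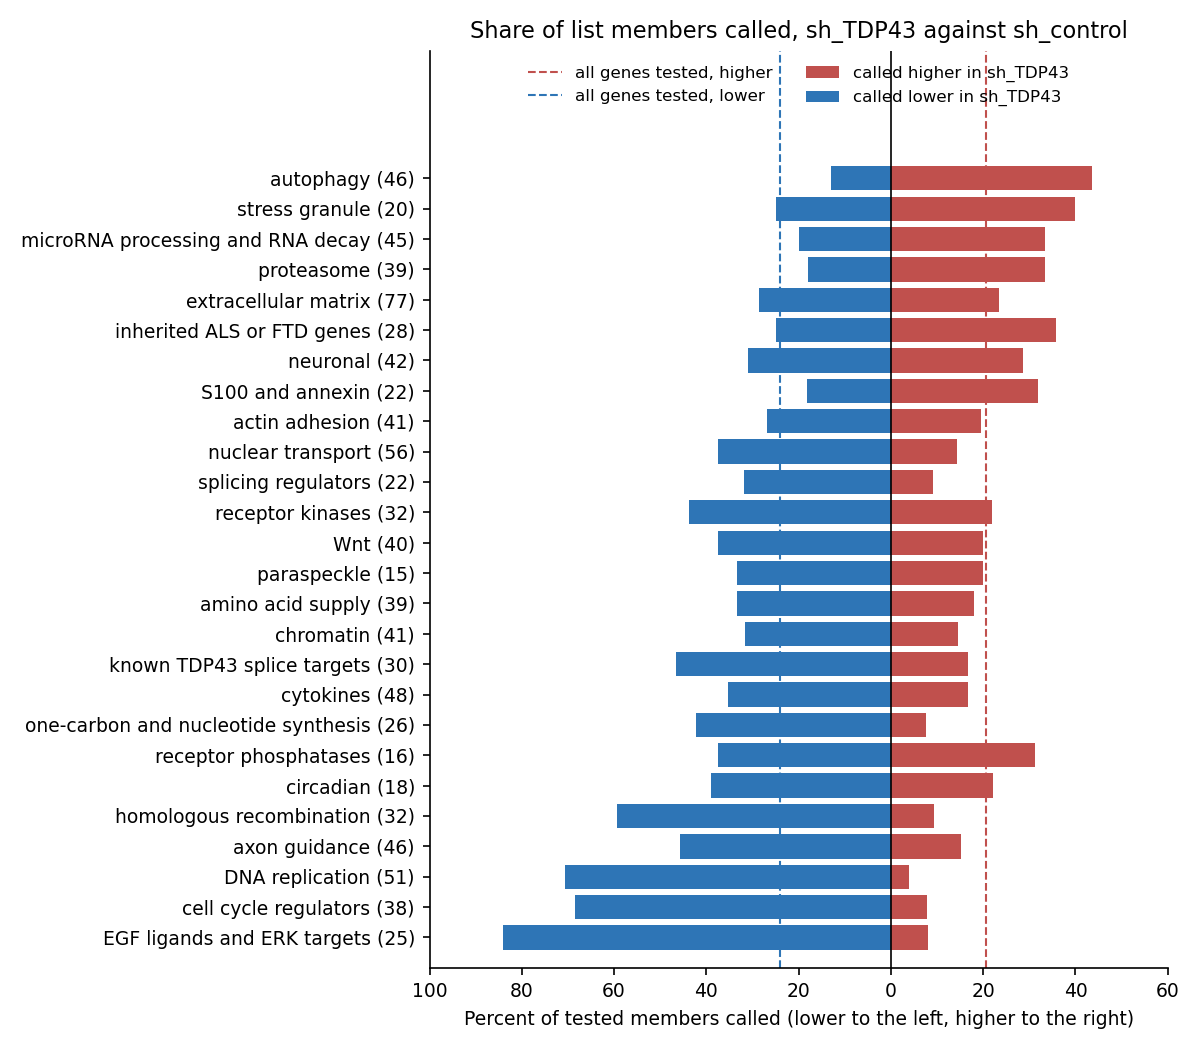
Percent of tested members called higher (right) and lower (left) in sh_TDP43 for each list, with the number tested in parentheses, ordered by the median log2 change. Dashed lines mark the shares of all genes tested, 20.7% higher and 24.1% lower. Of the EGF ligand and ERK target list 84.0% fell, and of the autophagy list 43.5% rose.

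The ligands of the EGF receptor family and the genes that the ERK kinases switch on were lower together. EGF family ligands are shed from the cell surface, activate receptor kinases and feed the RAS and ERK cascade, and MDA-MB231 cells carry an active form of this cascade. Of 8 ligands tested 6 fell and 1 rose, with a median of -1.21. HBEGF (chromosome 5, 139712428 to 139726216), a heparin-binding ligand, was at 18.3 and 16.95 CPM in sh_TDP43, against 125 and 115 CPM in sh_control (log2 change -2.77, SE 0.12, adjusted p = 3.78e-09). TGFA, which encodes transforming growth factor alpha, stood at 18.5 and 19.8 CPM in sh_TDP43, against 78.2 and 96.05 CPM in sh_control (log2 change -2.19, SE 0.12). The amphiregulin gene AREG had 6.19 and 5.53 CPM in sh_TDP43, against 13.5 and 18.5 CPM in sh_control (log2 change -1.45, SE 0.16). In all 3 genes both sh_TDP43 libraries were below both control libraries. EREG (-0.998) and the neuregulin genes NRG1 (-0.93) and NRG2 (-1.43) also fell, and NRG2, at 0.488 and 0.374 CPM in sh_TDP43, against 1.18 and 1.15 CPM in sh_control, lost its call with DESeq2 and in a fit without any one of the 4 libraries. EGF itself rose, with 10.9 and 14.8 CPM in sh_TDP43, against 4.17 and 4.23 CPM in sh_control (log2 change 1.61, SE 0.22), while betacellulin, encoded by BTC, was at 2.66 and 2.78 CPM in sh_TDP43, against 2.72 and 4.62 CPM in sh_control (adjusted p = 0.27). EPGN and NRG4 had too few reads to test.

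Of 17 ERK targets and feedback genes 15 fell and 1 rose, with a median of -0.999. The sprouty genes, feedback inhibitors of receptor signalling, were led by SPRY1, at 14.4 and 11.6 CPM in sh_TDP43, against 48.6 and 52.2 CPM in sh_control (log2 change -1.96, SE 0.19). SPRY4 had 66.9 and 64.3 CPM in sh_TDP43, against 177 and 199 CPM in sh_control (log2 change -1.52, SE 0.10), and SPRY2 changed by -1.04. The ETS factor gene ETV4, one of the genes most closely tied to ERK output, was at 26.3 and 25.1 CPM in sh_TDP43, against 84.9 and 81.98 CPM in sh_control (log2 change -1.699, SE 0.10). FOSL1, an AP-1 subunit stabilised by ERK, stood at 239 and 238 CPM in sh_TDP43, against 562 and 562 CPM in sh_control (log2 change -1.24, SE 0.10). The dual-specificity phosphatase genes DUSP4 (-0.77), DUSP5 (-1.23) and DUSP6 (-0.71), which switch ERK off, fell as well. CCND1, the cyclin D1 gene, changed by -0.999. The single rise, that of SPRED1 (0.27), was lost in a fit without any one of the 4 libraries, and the smallest falls, those of SPRED2 (-0.25) and ETV5 (-0.30), were lost without control replicate 2 or either sh_TDP43 replicate. Upper-quartile scaling also ended both calls, and that of SPRED2 held only with the replicate block and without control replicate 1. The count of members that fell, 21 of 25, stayed between 18 and 20 when a library was left out. The plot of these genes with their SE shows the ligands spread more widely than the ERK targets.

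**Figure D3:**
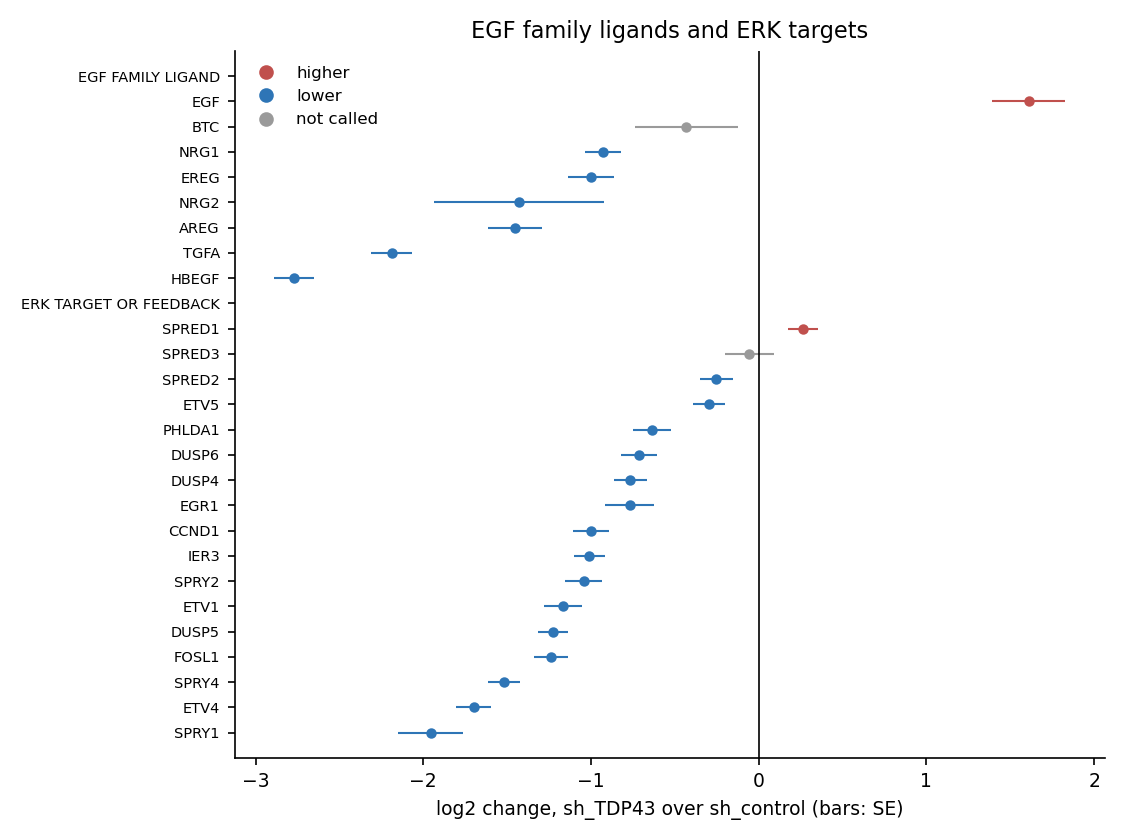
log2 change of sh_TDP43 over sh_control for each tested EGF family ligand and ERK target, with bars for the SE; colour gives the call. HBEGF lies lowest at -2.77 and EGF highest at 1.61.

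The list was lower in both knockdowns and further down in sh_SRSF3. Against the same control libraries, 20 of the 25 members fell and 1 rose in sh_SRSF3 (median -1.74), in a comparison that called 66.9% of all genes, 32.5% higher and 34.4% lower. In the direct test of sh_TDP43 against sh_SRSF3, which called 9842 genes (65.5%; 33.5% higher and 32.0% lower in sh_TDP43), 16 of the 25 members were higher and 7 lower in sh_TDP43. Most ERK targets were on the higher side, such as EGR1 at 1.87 (SE 0.16, adjusted p = 2.16e-07) and DUSP6 at 1.54 (SE 0.11), whereas the ligand genes AREG (-2.82), TGFA (-1.19) and HBEGF (-0.76) were lower in sh_TDP43 than in sh_SRSF3. The ligand genes EGF (3.39), NRG2 (2.83) and BTC (2.096) were higher.

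Most genes that license and fire DNA replication origins and run the fork fell after TDP43 knockdown. The CMG helicase, made of CDC45, the MCM proteins and the GINS proteins, unwinds DNA at the fork, and its genes are classic targets of the E2F factors that the retinoblastoma protein restrains. Of 51 genes tested 36 fell and 2 rose, with a median of -0.54. Against the same controls, sh_SRSF3 had 13 of the 51 genes lower and 23 higher (median 0.18). The direct test placed 40 of the 51 lower and 6 higher than in sh_SRSF3, beside 32.0% and 33.5% of all genes. The deepest fall was that of GINS2 (chromosome 16, 85709804 to 85723679), a GINS subunit, with 2.28 and 1.84 CPM in sh_TDP43, against 34.7 and 28.05 CPM in sh_control (log2 change -3.93, SE 0.20, adjusted p = 8.89e-09). Its partners moved less, GINS1 by -0.43, GINS3 by -0.52 and GINS4 by -0.81.

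The promoters of 4 genes that fell are printed as examples, chosen because they hold letters that E2F factors are known to bind. The letters searched were TTTCCCGC and TTTGGCGC on both strands, in RefSeq windows of 300 bases (250 before the annotated start and 50 after it; build GRCh38.p14, whereas the count table uses GRCh37). Capitals mark the matches, and each sequence runs 5′ to 3′ on the strand of its gene. GINS2 lies at chr16:85688905-85689204, minus strand. CDC6, which loads the helicase onto origins, lies at chr17:40287629-40287928, plus strand. MCM6, a helicase subunit, lies at chr2:135876394-135876693, minus strand. PCNA, the sliding clamp of the polymerases, lies at chr20:5126573-5126872, minus strand.
GINS2: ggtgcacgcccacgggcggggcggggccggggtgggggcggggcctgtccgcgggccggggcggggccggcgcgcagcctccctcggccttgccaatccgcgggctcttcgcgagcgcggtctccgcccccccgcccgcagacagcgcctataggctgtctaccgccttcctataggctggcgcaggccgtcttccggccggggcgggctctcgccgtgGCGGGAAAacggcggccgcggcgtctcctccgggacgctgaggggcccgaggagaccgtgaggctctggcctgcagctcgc
CDC6: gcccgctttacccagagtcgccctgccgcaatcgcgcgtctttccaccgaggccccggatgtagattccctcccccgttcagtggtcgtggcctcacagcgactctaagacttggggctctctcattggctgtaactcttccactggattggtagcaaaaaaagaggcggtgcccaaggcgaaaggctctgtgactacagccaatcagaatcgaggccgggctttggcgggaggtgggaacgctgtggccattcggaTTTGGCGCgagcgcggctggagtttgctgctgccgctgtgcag
MCM6: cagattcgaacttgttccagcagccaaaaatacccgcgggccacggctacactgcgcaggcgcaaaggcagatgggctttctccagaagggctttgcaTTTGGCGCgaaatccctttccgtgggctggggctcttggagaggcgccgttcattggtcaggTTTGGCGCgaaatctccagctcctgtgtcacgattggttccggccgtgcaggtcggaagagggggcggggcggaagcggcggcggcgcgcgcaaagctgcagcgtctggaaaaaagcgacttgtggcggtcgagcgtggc
PCNA: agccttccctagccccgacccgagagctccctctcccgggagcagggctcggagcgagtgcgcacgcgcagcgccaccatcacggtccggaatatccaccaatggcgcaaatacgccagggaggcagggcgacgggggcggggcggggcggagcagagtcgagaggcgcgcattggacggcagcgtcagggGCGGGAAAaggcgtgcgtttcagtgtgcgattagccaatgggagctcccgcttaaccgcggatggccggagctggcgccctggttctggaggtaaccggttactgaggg

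A window was on hand for 10714 of the tested genes, and 3.61% of those held a match. Among replication genes that fell, 15 of 31 windows (48.4%) held one, and among those not called lower 2 of 14 did (14.3%). Among cell cycle regulators that fell 4 of 19 held one (21.1%), and among EGF ligands and ERK targets that fell 0 of 13. The list holds known E2F targets, so a high share was likely beforehand. The shares are therefore no test of E2F in the knockdown. Windows of all genes that fell by 2-fold or more held it at 3.86%, close to the share of all genes. MCM6 has 2 matches, and the match of CDC6 lies after the annotated start. A match gives letters in a window, not a bound site.

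Licensing genes, which mark origins in G1, fell in 11 of 16 cases with none higher. CDC6 was at 54.7 and 44.8 CPM in sh_TDP43, against 134 and 119.7 CPM in sh_control (log2 change -1.35, SE 0.11, adjusted p = 5.59e-07). MCM6 stood at 75.9 and 57.5 CPM in sh_TDP43, against 109 and 100.4 CPM in sh_control (log2 change -0.65, SE 0.12), and the genes MCM2, MCM3, MCM4, MCM5, MCM7 and MCM10 fell by 0.53 to 0.86 on the log2 scale. The MCM2 and GINS1 calls ended without sh_TDP43 replicate 2, and that of GINS3 without sh_TDP43 replicate 1. The origin recognition genes ORC2, ORC3, ORC4 and ORC5 were not called, with log2 changes of 0.17, 0.23, -0.02 and -0.23, although ORC3 was called without control replicate 2. Of 29 firing and fork genes 21 fell and 2 rose. PCNA was at 102 and 80.7 CPM in sh_TDP43, against 192 and 166 CPM in sh_control (log2 change -0.97, SE 0.12). CDC45 (-1.39) and the checkpoint adaptor gene CLSPN (-1.11) moved further. The rises of CDC7 (0.29) and POLA2 (0.38) were lost when either sh_TDP43 replicate was left out, CDC7 also without control replicate 2 or sh_SRSF3 replicate 1 and POLA2 also without control replicate 1. Of 6 genes that supply nucleotides 4 fell, with RRM2, a ribonucleotide reductase subunit, at 85.7 and 58.5 CPM in sh_TDP43, against 264 and 233 CPM in sh_control (log2 change -1.78, SE 0.16). RRM1, the partner subunit, was at 217 and 189 CPM in sh_TDP43, against 234 and 218 CPM in sh_control (adjusted p = 0.213).

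Most cell cycle regulator genes were lower too. Whether they bear on the replication genes here was not tested. Of 14 E2F and MYB factors and their partners 12 fell and 1 rose. The E2F3 call held only with the replicate block and without control replicate 1. It was lost with RLE or upper-quartile scaling, with DESeq2, without the filter on low counts and with 4 libraries only. Leaving out any other single library also ended it. The FOXM1 call was lost with upper-quartile scaling and without sh_TDP43 replicate 2. Whether MYBL1 was called changed without sh_TDP43 replicate 2, and whether TFDP2 was called changed without sh_TDP43 replicate 1. TFDP1, which pairs with E2F proteins to bind DNA, was at 86.6 and 62.9 CPM in sh_TDP43, against 233 and 192 CPM in sh_control (log2 change -1.51, SE 0.14). E2F4, a repressor-type member, changed by -1.48, E2F2 by -1.44 and E2F8 by -1.14, whereas E2F6, another repressor, rose by 0.75. Of 9 cyclins 5 fell, led by CCNE2 (-1.14) and CCNB2 (-1.07). CDK6, the partner of D cyclins, was at 59.3 and 64.01 CPM in sh_TDP43, against 122 and 142 CPM in sh_control (log2 change -1.09, SE 0.10). Among inhibitors, CDKN1B, which encodes p27, was the 1 that rose, with 123 and 117 CPM in sh_TDP43, against 52.1 and 53.8 CPM in sh_control (log2 change 1.18, SE 0.09, adjusted p = 2.62e-07). CDKN1C (-1.97), CDKN2D (-1.37), CDKN1A (-0.66) and RBL1 (-0.66) fell, so inhibitor genes changed in both directions. The CDKN1A call ended without control replicate 2 or sh_TDP43 replicate 1. The CDC25A phosphatase gene rose (0.81) and CDC25B fell (-1.19). In all, 26 of 38 cell cycle regulators fell and 3 rose.

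Recombination and Fanconi anaemia genes, which repair broken and crosslinked DNA and are most used in S phase, had 19 of 32 members lower and 3 higher (median -0.44). FANCI stood at 45.05 and 35.6 CPM in sh_TDP43, against 91.5 and 95.7 CPM in sh_control (log2 change -1.21, SE 0.11). FANCC (-1.07) fell to a similar extent. When either sh_TDP43 replicate was left out, the count of 3 was 1. RAD50, a subunit of the complex that senses breaks, rose, with 118 and 124 CPM in sh_TDP43, against 68.5 and 72.5 CPM in sh_control (log2 change 0.78, SE 0.09). The plot of these groups shows medians below 0 in every role drawn.

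**Figure D4:**
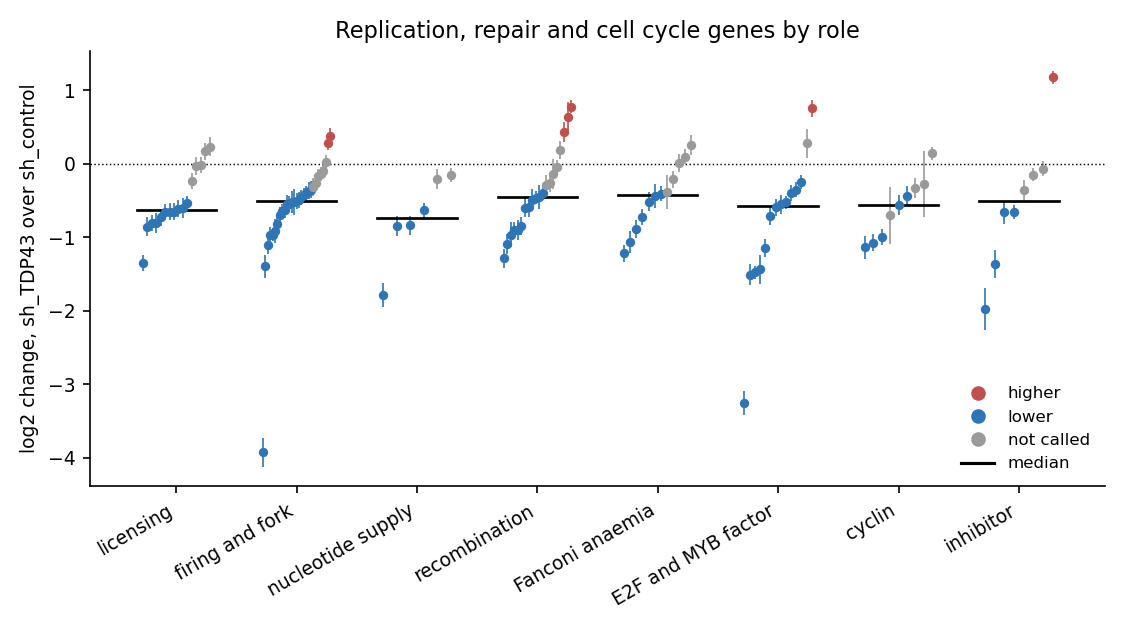
log2 change of sh_TDP43 over sh_control for single genes (points, with SE bars) in 8 roles of DNA replication, repair and the cell cycle; black lines are medians over the tested members. GINS2 (-3.93) and MYBL2 (-3.26) lie lowest, and CDKN1B (1.18) lies highest.

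Autophagy genes rose more often than they fell. Autophagy encloses cargo in a double membrane, with the ULK1 and BECN1 complexes starting the membrane, ubiquitin-like proteins decorating it and cargo receptors binding what is to be degraded. Of 46 genes tested 20 rose (43.5%) and 6 fell, beside 20.7% higher and 24.1% lower among all genes. All 5 cargo receptor genes rose. SQSTM1, which encodes p62, was at 304 and 385 CPM in sh_TDP43, against 181 and 202 CPM in sh_control (log2 change 0.85, SE 0.11, adjusted p = 4.42e-05). NBR1 had 253 and 274 CPM in sh_TDP43, against 145 and 166 CPM in sh_control (log2 change 0.76, SE 0.10), and OPTN changed by 0.55. The rises of CALCOCO2 (0.44) and TAX1BP1 (0.41) were smaller, and the call of TAX1BP1 was lost without control replicate 1 or sh_TDP43 replicate 2.

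Of 11 initiation and nucleation genes 8 rose and none fell. BECN1 was at 88.8 and 89.9 CPM in sh_TDP43, against 50.2 and 51.7 CPM in sh_control (log2 change 0.81, SE 0.09), ATG14 changed by 0.73 and the kinase genes ULK1 and ULK2 by 0.68 and 0.59; the ULK2 call ended without sh_TDP43 replicate 1. Conjugation genes were mixed, with 5 of 20 higher and 4 lower. GABARAPL1, a member of the ATG8 family, stood at 81.03 and 109 CPM in sh_TDP43, against 22.03 and 32.5 CPM in sh_control (log2 change 1.801, SE 0.18). WIPI1, which reads the phosphoinositide of the growing membrane, had 46.6 and 59.3 CPM in sh_TDP43, against 18.6 and 19.3 CPM in sh_control (log2 change 1.48, SE 0.15). ATG7, the enzyme that activates ATG8 proteins, rose (0.66), whereas ATG5 (-0.55), ATG4B (-0.43) and ATG16L2 (-0.69) fell. The LC3 gene MAP1LC3B, at 81.8 and 82.1 CPM in sh_TDP43, against 68.5 and 79.7 CPM in sh_control, was not called.

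Of the transcription factors that drive lysosome genes, MITF rose, with 92.1 and 88.3 CPM in sh_TDP43, against 36.2 and 36.6 CPM in sh_control (log2 change 1.31, SE 0.09), and so did TFE3 (0.69), while TFEB (0.38, adjusted p = 0.123) was not called. The RAG GTPase genes RRAGA (-0.88) and RRAGC (-0.46), which bring amino acid sensing to the lysosome, fell. LAMP1 and LAMP2, structural proteins of the lysosomal membrane, had log2 changes of -0.04 and 0.07. Against the same control libraries 32 of the 46 genes rose and 5 fell in sh_SRSF3 (median 0.42). In the direct test 11 of the 46 genes were higher and 20 lower in sh_TDP43 than in sh_SRSF3, beside 33.5% and 32.0% of all genes. The count of 20 genes above sh_control stayed between 17 and 20 when a library was left out. The plot of autophagy genes by role shows the initiation and cargo receptor genes mostly to the right of 0 and the conjugation genes on both sides.

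**Figure D5:**
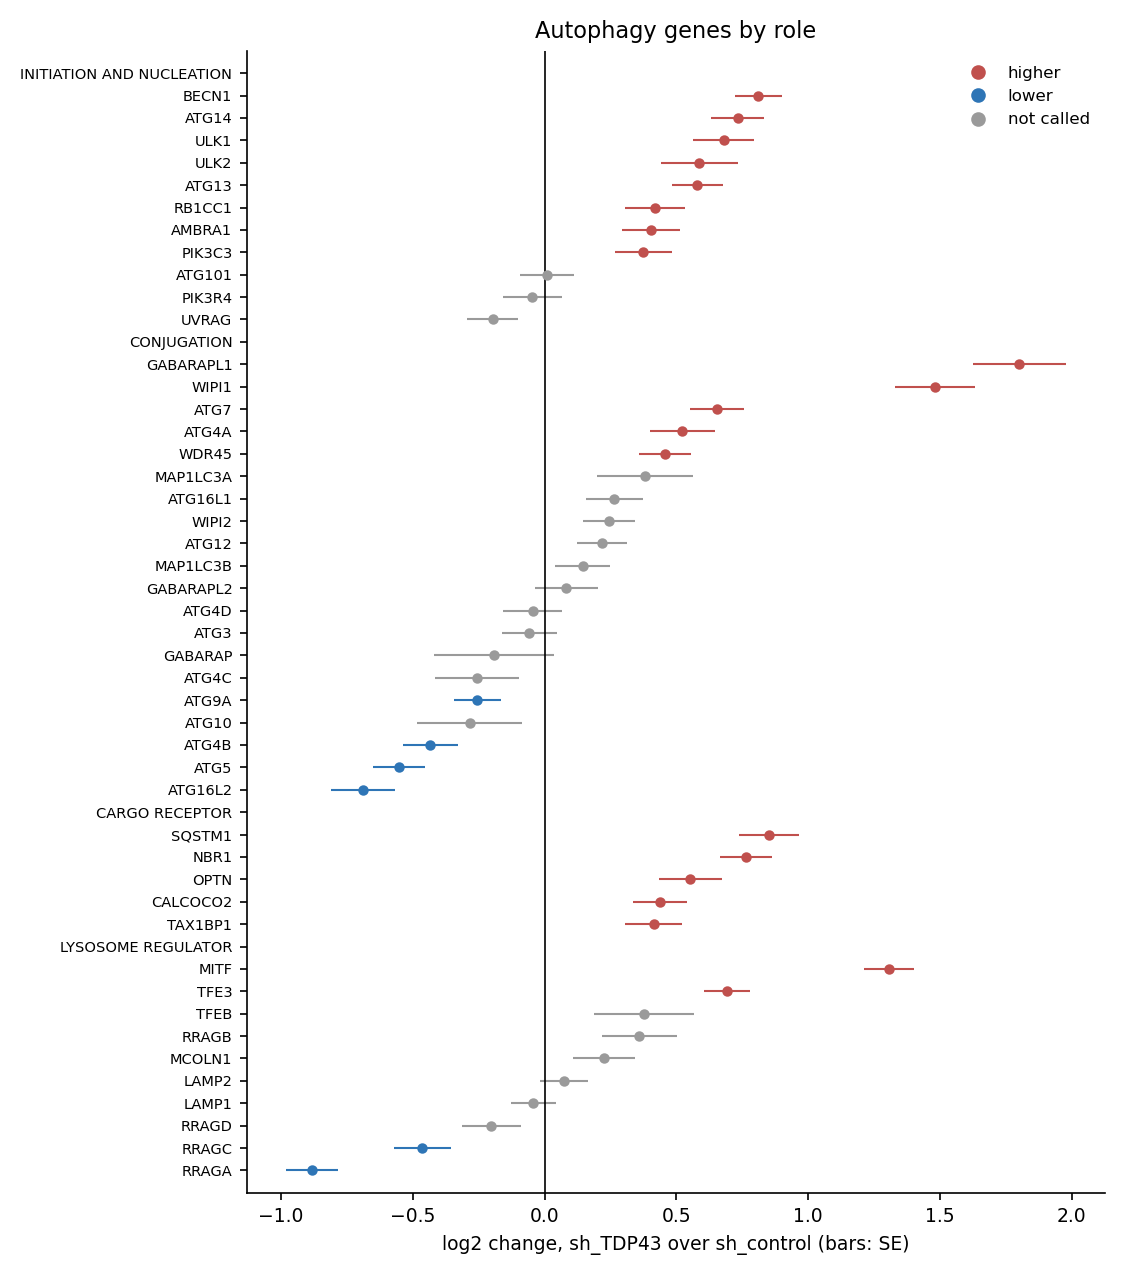
log2 change of sh_TDP43 over sh_control for 46 autophagy genes, grouped by role, with bars for the SE; colour gives the call. All 5 cargo receptors lie between 0.41 and 0.85, and GABARAPL1 lies highest at 1.80.

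Transcripts known from other systems as splicing targets of TDP43 were lower in 14 of 30 cases and higher in 5 (median -0.24). Counts sum all exons of a gene, and exon choice is therefore not measured here. PFKP, a phosphofructokinase gene, was at 121 and 92.1 CPM in sh_TDP43, against 578 and 489 CPM in sh_control (log2 change -2.32, SE 0.13). INSR, the insulin receptor gene, had 15.1 and 13.8 CPM in sh_TDP43, against 41.8 and 36.3 CPM in sh_control (log2 change -1.43, SE 0.13). RANBP1 (-1.22), BCL2L11 (-1.28) and NUP188 (-0.93) also fell. Rises were smaller, at 0.66 for ATG7, 0.51 for TRAPPC12 and 0.44 for CEP290, and the count of 5 was 3 without either sh_TDP43 replicate. STMN2, the best known target in neurons, had too few reads to test, and UNC13A, at 1.14 and 1.87 CPM in sh_TDP43, against 1.26 and 4.75 CPM in sh_control, was not called (adjusted p = 0.127), except without the filter on low counts or without control replicate 1.

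Genes for the proteins that build paraspeckles did not move as NEAT1 did. Of 13 genes for such proteins 5 fell and 1 rose. NONO, a core protein, was at 310.3 and 293 CPM in sh_TDP43, against 588 and 573 CPM in sh_control (log2 change -0.94, SE 0.09), and its partner PSPC1 rose by 0.56, while SFPQ (-0.05) was not called. MALAT1, the nuclear RNA next to NEAT1 in the genome, was at 894 and 923 CPM in sh_TDP43, against 541 and 359.7 CPM in sh_control (log2 change 1.01, SE 0.14). Of the nuclear RNAs, NEAT1 differed from sh_SRSF3 by 1.797 (SE 0.11, adjusted p = 7.93e-09), and MALAT1 by 0.28 (adjusted p = 0.0956).

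Other RNA-handling groups changed in both directions. Of 22 tissue regulators of splicing 7 fell (31.8%) and 2 rose (9.09%), so 40.9% were called, beside 44.8% of all genes. PTBP1, which represses neuronal exons, was at 267 and 241 CPM in sh_TDP43, against 671 and 571 CPM in sh_control (log2 change -1.29, SE 0.12). MBNL1 fell (-0.90) and its paralog MBNL2 rose (0.57). RBM20, the splicing regulator of titin, had 5.56 and 6.79 CPM in sh_TDP43, against 0.592 and 0.835 CPM in sh_control (log2 change 3.11, SE 0.33), a low level in both groups. In the nuclear transport list 21 of 56 members fell and 8 rose, with the importin gene KPNB1 at 401 and 344 CPM in sh_TDP43, against 859 and 767 CPM in sh_control (log2 change -1.13, SE 0.10). KPNA3 (-1.103) fell and the nucleoporin gene NUP210 rose (0.65). Without sh_TDP43 replicate 2, 10 members fell and 5 rose, and 3 rose without sh_TDP43 replicate 1 and 5 without control replicate 2.

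Genes of microRNA processing and RNA decay rose in 15 of 45 cases and fell in 9. TNRC6B, the scaffold that links Argonaute to deadenylation, was at 75.6 and 72.2 CPM in sh_TDP43, against 35.6 and 33.6 CPM in sh_control (log2 change 1.09, SE 0.10). DICER1 (0.63), AGO2 (0.62) and the deadenylase gene CNOT6 (0.70) rose. CASC3, a component of the exon junction complex, stood at 45.3 and 39.4 CPM in sh_TDP43, against 123 and 124 CPM in sh_control (log2 change -1.55, SE 0.10). TARBP2, the partner of DICER1, fell (-0.73). Without sh_TDP43 replicate 2 the count of 9 was 4. Of 20 stress granule genes 8 rose and 5 fell, with ATXN2 at 0.57 and EIF4G1 at -0.99, and 4 rose without sh_TDP43 replicate 1. Of 28 genes linked to inherited ALS or FTD 10 rose and 7 fell, with NEK1 (0.92), SQSTM1 (0.85), GRN (0.64) and VCP (0.56) highest and UBQLN2 (-0.97) lowest in a list that leaves out TARDBP itself. Without sh_TDP43 replicate 2 the ALS and FTD counts were 5 and 3, and with upper-quartile scaling 4 fell.

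At the cell surface, 14 of 32 receptor kinase genes fell and 7 rose. AXL, the receptor of GAS6 and a mark of the mesenchymal state, was at 459.99 and 401 CPM in sh_TDP43, against 1731 and 1499 CPM in sh_control (log2 change -1.91, SE 0.11, adjusted p = 2.38e-08). The largest rises, those of ALK and TEK, were at most 1.84 CPM in any of the 4 libraries. Among 46 axon guidance genes 21 fell and 7 rose (median -0.45). NRP1, the co-receptor of semaphorins and VEGF, stood at 155 and 145 CPM in sh_TDP43, against 487 and 482 CPM in sh_control (log2 change -1.69, SE 0.12). EFNB2, an ephrin, had 21.2 and 20.001 CPM in sh_TDP43, against 93.3 and 94.4 CPM in sh_control (log2 change -2.19, SE 0.10). SEMA3C fell as well (-1.44), whereas the semaphorin receptor gene PLXNB1, at 21.8 and 25.2 CPM in sh_TDP43, against 5.95 and 5.92 CPM in sh_control (log2 change 1.98), and SEMA3E (2.11) rose. Against sh_SRSF3, 34 of the 46 axon guidance genes were higher and 4 lower in sh_TDP43, and in sh_SRSF3 34 fell and 4 rose against the same controls.

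Receptor tyrosine phosphatase genes split, with 5 of 16 higher and 6 lower. PTPRF, at 94.2 and 81.2 CPM in sh_TDP43, against 289 and 246 CPM in sh_control (log2 change -1.61), and PTPRA (-1.57) fell, while PTPRR (3.63), a phosphatase that acts on ERK, rose to 17.7 and 24.3 CPM in sh_TDP43, against 1.26 and 2.11 CPM in sh_control. Of 40 Wnt genes 15 fell and 8 rose. The ligand gene WNT7B was at 14.6 and 13.1 CPM in sh_TDP43, against 78.9 and 61.3 CPM in sh_control (log2 change -2.34, SE 0.14). Wnt receptors fell in 5 of 10 cases with none higher, FZD1 by -1.33. The kinase gene GSK3B, which marks beta-catenin for degradation, rose (0.83). Without sh_TDP43 replicate 2, 4 Wnt genes rose.

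Genes for secreted products changed in both directions. Of 26 collagen genes 9 fell and 2 rose, and of 22 matrix glycoprotein genes 3 fell and 8 rose. COL6A3, a chain of microfibrillar collagen, stood at 9.01 and 12.6 CPM in sh_TDP43, against 43.5 and 57.9 CPM in sh_control (log2 change -2.23, SE 0.19). CEMIP, a hyaluronan-degrading protein gene, had 2.88 and 1.82 CPM in sh_TDP43, against 26.98 and 46.6 CPM in sh_control (log2 change -3.97, SE 0.26). The syndecan gene SDC2 fell (-2.15), and HSPG2, which encodes perlecan, rose (1.17). In the cytokine and growth factor list 17 of 48 members fell and 8 rose, or 4 without sh_TDP43 replicate 2 and 5 without control replicate 1. VEGFA, the vascular growth factor gene, was at 73.9 and 72.9 CPM in sh_TDP43, against 258 and 229 CPM in sh_control (log2 change -1.73, SE 0.10). IL18, an inflammasome product, stood at 102 and 117 CPM in sh_TDP43, against 32.98 and 35.4 CPM in sh_control (log2 change 1.68, SE 0.12). Cytokine genes were higher than in sh_SRSF3 in 30 of 48 cases and lower in 7, and in sh_SRSF3 31 fell and 4 rose against the same controls.

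Building-block supply was lower in part. Of 10 serine and folate genes 6 fell and none rose. PSAT1, an enzyme of serine synthesis, was at 46.98 and 39.4 CPM in sh_TDP43, against 103 and 86.9 CPM in sh_control (log2 change -1.14, SE 0.11). PPAT, the first committed enzyme of purine synthesis, had 19.1 and 16.8 CPM in sh_TDP43, against 68.5 and 58.4 CPM in sh_control (log2 change -1.82, SE 0.12). IMPDH2, the guanine nucleotide enzyme gene, fell (-1.04) and PRPS1, which makes the ribose donor, rose (0.62). SLC7A1, the arginine and lysine transporter gene, stood at 55.8 and 50.6 CPM in sh_TDP43, against 250.2 and 224 CPM in sh_control (log2 change -2.15, SE 0.10). The lysosomal amino acid sensor gene SLC38A9 rose (0.90). Over transporters and tRNA synthetases, 13 of 39 genes fell and 7 rose, and without sh_TDP43 replicate 2 the counts were 8 and 4.

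Whether transcripts found with TDP43 in the RIP changed more often was read from classes of log2((RIP FPKM + 1)/(input FPKM + 1)), over 8726 genes with at least 1 FPKM in the input. This rests on 1 RIP and 1 input library, so it has no replicate check. Genes at 1 or more on this scale (1142) were lower in 35.7% and higher in 19.1% of cases, genes below -1 (1148) in 32.3% and 16.1%, and all 8726 in 32.8% and 19.2%. In either direction 48.4% of genes below -1 were called, 51.2% at -1 to 0, 53.3% at 0 to 1 and 54.8% at 1 or more. All 8726 had 52.0%. The differences between classes were thus small but ran in one order. That order was the same with a pseudocount of 0.1 FPKM and with the second RIP table. The part of expression level in it was not tested. Among genes that fell most, PLAU was at 3.45 on the RIP scale, ANP32E at 2.02 and CLIC4 at 1.23, whereas MYBL2 was at -0.84 and BASP1 at -0.38. NEAT1, a known ligand of TDP43, was at 0.22.

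Genes were also classed by structure, over all genes tested. Long genes are of interest because TDP43 binds long introns. Genes spanning 500 kb or more (206 tested) were higher in 30.1% of cases, and genes under 10 kb (3455) in 15.7%. The shares called lower were 16.99% of the longest genes and 21.5% of the shortest. The order of the shares called higher held at both levels of expression. Among genes with a mean of at least 10 CPM, 35.2% of the 88 longest and 18.6% of the 1595 shortest were higher. Below 10 CPM the shares were 26.3% of 118 and 13.3% of 1860. Among genes with at least 1 FPKM in the RIP input the shares lay closer, at 18.2% of the 44 longest and 15.6% of the 1868 shortest. In that set more genes fell than rose, with 38.6% of the longest and 32.6% of the shortest lower. The histone deacetylase gene HDAC9, which spans 915468 bases, was at 76.5 and 85.9 CPM in sh_TDP43, against 21.5 and 29.5 CPM in sh_control (log2 change 1.67, SE 0.14). INPP4B, a phosphoinositide phosphatase gene, had 119.9 and 119.8 CPM in sh_TDP43, against 51.5 and 52.5 CPM in sh_control (log2 change 1.203). The phosphodiesterase gene PDE4D, with a span of 1553083 bases, went the other way (-1.19). INPP4B and PDE4D were taken from the long genes after their values were seen. Most genes with a single exon block (530 of 713) had a mean below 10 CPM, where 9.06% were higher and 6.60% lower, beside 18.1% and 10.8% of all genes at that level. At 10 CPM or more 16.4% of 183 such genes were higher and 43.2% lower, beside 22.2% and 31.7% of all. Most long noncoding genes (298 of 343) also lay below 10 CPM, where 19.1% were higher and 6.04% lower, against 18.3% and 12.8% of 4197 protein-coding genes. At 10 CPM or more 42.2% of 45 long noncoding genes were higher and 9 were lower, against 21.99% and 31.8% of 9427 protein-coding genes.

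The direct test of sh_TDP43 against sh_SRSF3 shows which changes differ between the 2 knockdowns. Of the 3105 genes higher than in sh_control, 1380 were also higher than in sh_SRSF3 and 807 lower. Of the 3623 genes lower than in sh_control, 1756 were lower and 1006 higher than in sh_SRSF3. Both contrasts use the same sh_TDP43 libraries, so these counts are not independent. At a mean of at least 20 CPM and with a call in both contrasts, the highest genes included AC004510.3 (log2 4.78), at 63.2 and 64.8 CPM in sh_TDP43, 2.64 and 2.02 CPM in sh_SRSF3 and 11.5 and 12.2 CPM in sh_control. TMEM245 (3.81) and NMNAT2 (3.77), an axon survival enzyme gene, followed. Against sh_control they changed by 0.70 and 1.55 in sh_TDP43 and by -3.11 and -2.22 in sh_SRSF3. MUC5AC (4.92) and DDX60 (4.57) were also among the 5 highest. In sh_TDP43 MUC5AC was lower than in sh_control (-0.63) and DDX60 higher (0.68), beside -5.55 and -3.89 in sh_SRSF3. The MUC5AC and DDX60 calls in sh_TDP43 against sh_control were lost with DESeq2 and without sh_TDP43 replicate 2. The MUC5AC call was also lost with upper-quartile scaling and without control replicate 2 or sh_TDP43 replicate 1, and that of DDX60 without control replicate 1. The lowest were SLC2A3 (-4.497), a glucose transporter gene, and MYBL2 (-4.06), at 16.2 and 10.8 CPM in sh_TDP43, 225 and 224 CPM in sh_SRSF3 and 143 and 115 CPM in sh_control. RIMS2 (-3.85) and the cystine transporter gene SLC7A11 (-3.28) were also among the lowest. Against sh_control, SLC2A3, RIMS2 and SLC7A11 changed by -1.70, -1.08 and -0.91 in sh_TDP43 and by 2.80, 2.77 and 2.37 in sh_SRSF3. BASP1 and CLIC4 were at -2.64 and -2.68 (SE 0.12 and 0.10), beside -2.76 and -2.65 against sh_control.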

How the data were processed

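Gene-level raw counts were deposited for the 6 hairpin libraries (sh_TDP43, sh_SRSF3 and sh_control) and made, per the file headers, with featureCounts v1.4.6-p5 in exon mode, without strand or read-pair settings, on GRCh37 with protein-coding and lincRNA annotation. The kit named in the labels does not mark strand, so reads of overlapping antisense genes cannot be told apart. STAR 2.5.2a, HISAT2 2.0.5, StringTie 1.3.0 and Cufflinks appear in the submitters' processing notes without their roles. The RIP table holds FPKM, per the file headers; a second deposited RIP table holds a signal of unstated scale. Count columns that match no sample label numbered 2 and were not used. Of 27745 genes, 27068 were named from the files and 89 from a reference table.

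The test was run in edgeR 4.0.16 under R 4.3.3 (TMM, filterByExpr, quasi-likelihood F-test, two-sided), with all 6 libraries in one fit, no covariates and 3 residual degrees of freedom. A call means a Benjamini-Hochberg adjusted p under 0.05 over 15026 genes. CPM are TMM-scaled, and their number of libraries per group is 2. Separate cultures are not stated in the labels; p-values therefore reflect only the spread among these libraries, possibly a technical one. No pair of libraries was alike within counting noise (lowest chi-square per gene 12.04). On simulated counts for this comparison (14553 genes tested), 54.4% of genes changed 1.5-fold, 76.6% changed 2-fold and 93.2% changed 4-fold were recovered. In the same simulation 10 unchanged genes were called. Only 57, 64 and 74 of the tested genes were changed by these folds, whereas 44.8% of genes were called in the data. With so few changed genes the adjusted p is stricter, so these rates do not carry over to the data. The members, gene lists and tests were chosen with earlier results of these data known. Named genes are the 8 largest rises and 8 largest falls at 50 CPM or more, the 5 largest gains and losses in CPM, up to 4 called members per list and direction, the 5 highest and 5 lowest genes of the direct test and any uncalled member given with its values. Further list members were named for their role, with their values known, and some genes that the rule names are not reported here. Promoters are RefSeq windows matched by symbol.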

Additional observations from a re-analysis of the deposited data

How the results depend on the processing

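The comparison of sh_TDP43 with sh_control called 6728 genes, 6730 with RLE scaling, 6934 with upper-quartile scaling, 6968 without a filter on low counts, 6385 with DESeq2 1.42.0 and 6662 with 4 libraries only, and none of the named or listed genes reversed its direction while called. Leaving out 1 library gave 4486 to 6576 calls, 1962 to 3008 of them higher and 2524 to 3605 lower; the lowest values, 4486 and 1962, came without sh_TDP43 replicate 2. In each of these fits the lone library of its group was assumed to vary like the others. Of 571 listed or named genes called, 378 were called with the same direction in every alternative that tested them. TARDBP stayed between -2.36 and -1.93. Of 624 recomputed list counts 47 moved by over 1.5 times, 43 of them when a library was left out, and upper-quartile scaling raised the nuclear transport genes called higher to 13. Replicate numbers are shared between groups, and deviations of same-numbered libraries correlated positively, by 0.24 to 0.31, a hint of pairing from the data; the labels name no shared batch, and the groups have only 2 numbers each. The fit with the replicate number as a block called 7672 genes, 6718 of the 6728 among them. With a pseudocount of 0.1 FPKM, genes at 1 or more in the RIP were lower in 34.9% of cases, and 32.9% with the second RIP table, an alternative chosen after seeing the data. With 2 libraries per group, changes under 1.5-fold can be missed. How often was not measured, since none were simulated.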

Other observations

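Chromatin, neuronal and proteasome groups not described above also held large single changes, with calls in both directions. The Polycomb gene CBX2 was at 3.26 and 2.78 CPM in sh_TDP43, against 17.6 and 13.7 CPM in sh_control (log2 change -2.37, SE 0.19). Of 7 DNA methylation genes 5 fell, among them UHRF1 (-0.84). Over the chromatin list 13 of 41 genes fell and 6 rose, against 7 and 10 with upper-quartile scaling and 6 and 3 without sh_TDP43 replicate 2. All 6 annexin genes that were called rose, of 11 tested, while S100 genes, which encode calcium-binding partners of annexins, fell in 4 of 11 cases and rose in 1. Over both families 7 rose, or 2 without either sh_TDP43 replicate and 4 without any one of the other libraries. S100A6 stood at 908 and 891 CPM in sh_TDP43, against 1634 and 1906 CPM in sh_control (log2 change -0.98, SE 0.10). In the proteasome list 13 of 39 members rose and 7 fell, and PSMA4, a core subunit, had 35.9 and 39.2 CPM in sh_TDP43, against 166 and 152 CPM in sh_control (log2 change -2.09, SE 0.10). The count of 13 was 5 without sh_TDP43 replicate 2, 7 without sh_TDP43 replicate 1 and 6 without control replicate 2.

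Of 42 neuronal genes 12 rose (28.6%) and 13 fell (31.0%). STMN3, a stathmin related to STMN2, was at 6.87 and 6.52 CPM in sh_TDP43, against 39.7 and 37.4 CPM in sh_control (log2 change -2.53, SE 0.13). MAP1B, a microtubule protein of growing axons, rose (0.80). Without sh_TDP43 replicate 2, 7 neuronal genes rose, and without sh_TDP43 replicate 1, 6 fell. Of 18 clock genes 7 fell and 4 rose, with PER2 at 1.93 and 1.497 CPM in sh_TDP43, against 5.65 and 6.42 CPM in sh_control (log2 change -1.82). Of 41 actin and adhesion genes 8 rose (19.5%) and 11 fell (26.8%), with fewer falls without sh_TDP43 replicate 2. These shares are close to the 20.7% and 24.1% of all genes. AP-1 letters (TGANTCA, both strands) stood in 9.43% of the promoter windows of genes that rose by 2-fold or more, 6.23% of those that fell as far and 5.04% of all windows. Of the other letters searched, HIF letters (ACGTG) stood in 22.8% of the windows of genes that rose as far and 26.2% of all windows, CRE letters (TGACGTCA) in 1.89% and 3.02%, and CLEAR letters (TCACGTGA), added after values were seen, in 0.755% and 1.83%. The TEAD letters (GGAATG) stood in 12.5% of the windows of genes that rose as far and 11.1% of all, and CHR letters (TTTGAA) in 11.5% and 10.01%. Of the windows of autophagy genes called higher, 0 of 19 held the CLEAR letters. With these letters in only 1.83% of all windows, so small a set cannot show a difference in either direction.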
